A study of Mus musculus with 31 samples.

Results

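The regions described here are the intron peaks of 106 genes that each hold 30 or more such peaks in the deposited peak set. They were found by counting, for every peak labelled intron, the first gene named in its label. The rule used no treatment and no signal level, only the number of called peaks per gene. It kept 106 of the 7356 genes with an intron peak (1.44%) and 4339 of 33522 intron peaks (12.9%), out of 104979 peaks of all classes. Genes with 30 intron peaks, such as Nfia, Elf1 and Fgfr2, were the last inside the rule. The first outside it, with 29, were Camk2d, Egfr, Gm33843, Rapgef2, Sox5, Spred2, Tcf4 and Zmiz1, followed by 4930598N05Rik and Aff1 with 28.

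The data are ATAC-seq counts, which report where a transposase can cut DNA in open chromatin, from 31 libraries of regulatory T cells (Tregs) sorted from mouse spleen. All mice carried a red fluorescent FoxP3 reporter (RFP-FoxP3+) and are labelled C57BL/6; no age is used here. They received 5 µg of mouse interleukin 2 (mIL-2, called IL2), 20 µg of the mIL-2/CD25 fusion protein (called FP) or 100 µL of PBS. At 0.75 h and at 16 h there were 3 PBS, 3 IL2 and 3 FP libraries, at 72 h 3 PBS and 3 FP, and at 168 h 3 PBS and 4 FP. The treatment text of every sample states 0.75 h, so the later times rest on the sample titles. Nothing in the labels says that libraries of one group came from separate mice, and p-values therefore measure the spread between these libraries, which may be technical.

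Introns of long genes carry many of the enhancers that act on the gene itself or on its neighbours, and the open chromatin of a cell type is spread over such distal sites as well as promoters. Tregs carry CD25, the alpha chain of the IL-2 receptor, and depend on IL-2. Binding of IL-2 activates the kinases JAK1 and JAK3, which phosphorylate the transcription factor STAT5; STAT5 dimers then bind DNA at the palindrome TTCNNNGAA. FP joins the cytokine to CD25 in a single molecule.

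The stretches of reference sequence come from intron peaks of these genes that were called in a test of treatment, which the rule did not use. Each was cut around a motif match, so a match in every stretch follows from the cutting and is no finding about these peaks. They belong to the 6 genes with the lowest adjusted p in the test over all treated groups described further on, leaving out Nedd4l, whose sequence is not shown here. Each stretch is the plus strand of GRCm38 around the match to TTCNNNGAA nearest the centre of the peak; capitals mark every match in the stretch, and the motif reads the same on both strands. The Immp2l stretch is chr12:41031249-41031449, that of Fhit chr14:10467389-10467578, that of Cdk6 chr5:3477964-3478164, that of Pde4d chr13:108451143-108451343 and that of Nfia chr4:97995939-97996139. All lie in introns.
Immp2l: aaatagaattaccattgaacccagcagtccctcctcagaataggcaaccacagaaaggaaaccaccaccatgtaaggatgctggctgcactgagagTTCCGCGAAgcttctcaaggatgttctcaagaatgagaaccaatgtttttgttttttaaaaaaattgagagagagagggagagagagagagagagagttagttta
Fhit: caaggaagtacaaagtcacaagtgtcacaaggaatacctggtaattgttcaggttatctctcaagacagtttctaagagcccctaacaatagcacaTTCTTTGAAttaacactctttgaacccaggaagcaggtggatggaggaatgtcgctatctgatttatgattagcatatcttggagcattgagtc
Cdk6: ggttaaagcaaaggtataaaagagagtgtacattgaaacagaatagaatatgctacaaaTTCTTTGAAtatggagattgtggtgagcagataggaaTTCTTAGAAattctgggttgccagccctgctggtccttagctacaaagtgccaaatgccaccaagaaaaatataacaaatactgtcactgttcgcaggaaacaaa
Pde4d: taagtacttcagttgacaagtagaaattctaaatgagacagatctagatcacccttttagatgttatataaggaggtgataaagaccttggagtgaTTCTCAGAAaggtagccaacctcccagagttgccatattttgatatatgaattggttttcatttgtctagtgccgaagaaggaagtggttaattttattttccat
Nfia: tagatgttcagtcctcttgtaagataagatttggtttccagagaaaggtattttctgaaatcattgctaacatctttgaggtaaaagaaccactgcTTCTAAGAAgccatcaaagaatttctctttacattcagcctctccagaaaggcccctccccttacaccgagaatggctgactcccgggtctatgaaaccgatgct
The matches differ in the 3 inner bases. Immp2l has TTCCGCGAA, Pde4d has TTCTCAGAA and Nfia has TTCTAAGAA. Fhit holds TTCTTTGAA, which is also the first of the pair in the Cdk6 stretch, and the other Cdk6 match is TTCTTAGAA. A match is a description of the letters and not evidence that a protein was bound.

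The 106 genes were mostly long. Of them, 104 matched a GENCODE M21 gene, 101 of these protein coding, with a median length of 293.9 kb against 56.8 kb for the other 7122 matched genes with an intron peak. Length alone did not set membership: 520 genes outside the rule were at least as long as the median member gene. Over the 7226 genes with a length, Spearman's rho between gene length and intron peaks was 0.49, a description across genes that share the same libraries. Member peaks lay inside the annotated gene body in 97.3% of cases, had a median width of 346 bp (331 bp for the other intron peaks) and lay at a median distance of 18933 bp from an annotated transcription start site, against 9599 bp for the other intron peaks. Only 1.68% of them, against 3.16%, were within 1 kb of a start site.

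Gm20388, a protein-coding gene model on chromosome 8, had 97 intron peaks and the longest annotated body, 4434.9 kb. After merging overlapping peaks it had 1.62 regions per 100 kb, beside a median of 6.06 over the member genes. A second gene was named in the label of 22 of its peaks. Foxp1, a forkhead transcription factor of quiescent lymphocytes, had 93, of which 56 named a second gene. Fhit and Wwox, enzyme genes that span common fragile sites, had 85 and 77, and Arid1b, a subunit of the BAF chromatin remodeller, also had 77. Pde4d, which encodes a cyclic AMP phosphodiesterase, had 76. Nav2 followed with 62, Tox, an HMG-box factor of T cells, with 61, Ubac2 with 60, and Lpp and Pde11a with 59 each. The lipid phosphatase gene Inpp4b had 58, Tmem135 had 56, and Dipk1a, Magi2 and Ppp1r16b had 55 each. Sgms1, the sphingomyelin synthase gene, had 52, Prkg1 and Themis, an adaptor of thymocyte selection, had 51, Sh3gl3 had 50 and Hdac9 49. Immp2l, Maml2, a Notch coactivator gene, and Zfhx3 had 47 each, Arid5b 46, and Bach2, a transcriptional repressor that maintains Tregs, Kcnq5, Prkag2 and Umad1 45 each. Camk1d, Jazf1 and Morrbid had 44 each. By the role lists, 9 of the 106 were listed with lymphoid transcription factors, 16 with signalling enzymes and adaptors, 5 with receptors and adhesion molecules and 5 with chromatin and nuclear regulators; 71 were in no list.

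Many of the peaks overlapped each other. The 4339 peaks collapsed to 2318 regions when peaks that share at least 1 base were merged, and 2242 of them overlapped another of the 4339. Of the regions, 2097 regions held 1 of these peaks, while 221 held a median of 10. In Zfp827, 27 of the 31 intron peaks lay in a single region of 1737 bp (chr8:79029188-79030924), and in Pde11a 26 of 59 lay within 1296 bp. At the other end, all 33 intron peaks of Ptprd, a receptor tyrosine phosphatase gene, all 31 of Ldlrad4 and all 30 of Gpc5 were separate. Overlapping peaks made up 51.7% of the member peaks and 29.7% of the other intron peaks. Counting regions in place of peaks, 21 genes reached 30, led by Gm20388 (72 regions), Fhit (53), Foxp1 (48), Wwox (45) and Pde4d (44). Because overlapping peaks share reads, regions are given beside peaks in every count below.

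**Figure D1:**
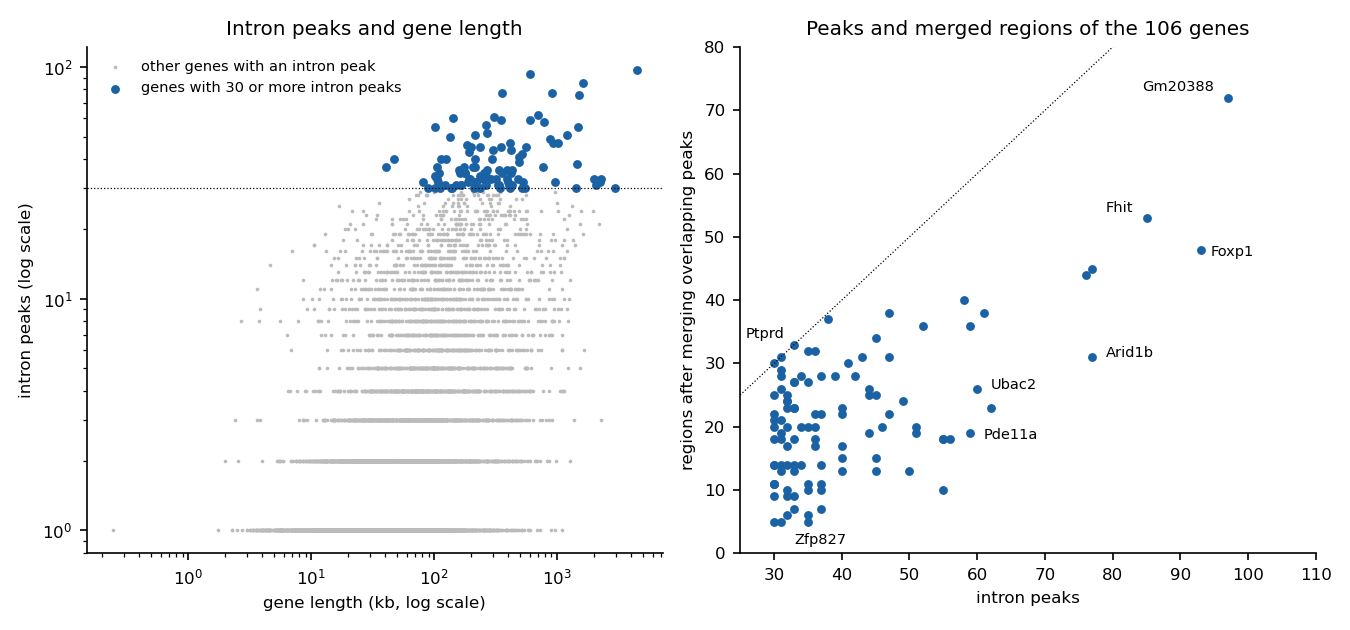
Left, intron peaks per gene against gene length in kb, both on log scales, for 104 genes with 30 or more intron peaks (blue) and 7122 others (grey), with the rule as a dotted line. Right, intron peaks against merged regions for the 106 genes; points on the dotted line, such as Ptprd with 33 of each, have no overlapping peaks, and Zfp827 has 31 peaks in 5 regions.

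In each library the level of a gene was taken as the median over its intron peaks of the depth-scaled count (CPM) per kb of peak (CPM per kb), after scaling by the trimmed mean of M-values (TMM). Over the 12 PBS libraries the median gene stood at 8.00 CPM per kb, with 7.14 in the lowest and 8.54 in the highest library. Other intron peaks had a median of 5.79 (5.25 to 6.67) and promoter peaks 10.9 (9.67 to 13.3). Overlapping peaks had higher levels in both sets. With overlap counted against every deposited peak, which adds 1 member peak to the 2242, the 2096 member peaks that stood alone had a median of 5.79 (5.01 to 6.30), beside 4.95 (4.44 to 6.03) for the 20516 other intron peaks that stood alone. The 2243 overlapping member peaks had 9.68 (9.09 to 10.7), beside 8.19 (7.38 to 8.65) for the 8667 overlapping other intron peaks. Member peaks thus had the higher median within each kind, with ranges over the libraries that overlapped for the peaks standing alone and did not for the overlapping ones. Over the 106 genes Spearman's rho between level and the share of overlapping peaks was 0.50, and between level and the number of intron peaks -0.00776, both as descriptions across genes measured in the same libraries. Of the 106 genes, 83 were above the other intron peaks by their median and 23 were not; 41 were above in all 12 PBS libraries and 0 below in all of them.

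Cobll1, which encodes a cordon-bleu-like actin regulator, had the highest level, 25.5 CPM per kb (18.8 to 31.5 over the 12 PBS libraries). Mdfic, a gene of the MyoD family inhibitor domain, stood at 20.7 (11.7 to 33.1). Zfp827, a zinc finger gene, had 17.5 (12.1 to 19.6), Trio, a guanine nucleotide exchange factor gene, 17.2 (9.37 to 21.7) and Fam53b 17.1 (6.53 to 24.4). These ranges overlap one another, but the genes share the same libraries. Within libraries, Cobll1 was above Zfp827, Trio and Fam53b in every PBS library and above Mdfic in 9 of the 12. The order below it was less fixed: Mdfic was above Zfp827 in 9, Zfp827 above Trio in 6 and Trio above Fam53b in 7. With 1 peak kept per merged region, Cobll1 stood at 8.51, Zfp827 at 8.04, Trio at 9.23, Fam53b at 7.36 and Mdfic at 14.5 CPM per kb, so the top of the order rests on piles of overlapping peaks for all but Mdfic. Mdfic also moved between the PBS groups, from 31.5 ± 1.44 at 0.75 h to 22.6 ± 4.47 at 16 h, 14.1 ± 2.07 at 72 h and 17.8 ± 5.80 at 168 h (mean ± SD, n = 3 each); time and processing date cannot be told apart.

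Among the lowest genes were Macrod2 at 4.49 CPM per kb (1.65 to 11.3), Gpc5, a glypican gene, at 3.84 (1.24 to 9.62), Ptprd at 3.35 (1.29 to 8.33) and Lrp1b, a lipoprotein receptor family gene, at 2.92 (1.66 to 7.26). None of them is best known for a role in T cells, and 0.0% (Gpc5, Ptprd) to 21.2% (Macrod2) of their peaks overlapped another peak. Their levels varied more between PBS libraries than those of most genes. For a typical gene the highest PBS library was 2.18 times the lowest, while Gpc5 spanned 7.77-fold, Macrod2 6.83-fold and Ptprd 6.45-fold. These genes and Lrp1b were lowest in PBS replicate 3 of 72 h, the library with the most counts of the PBS set (59.6 M), and highest in PBS replicate 1 or 2 of 168 h, which had the fewest (7.39 M and 13.4 M). Whether library size plays a part in these levels was not tested. Mid1, which encodes an E3 ubiquitin ligase, and Cntnap2, a neurexin family gene, ranged most, 22.0-fold and 17.8-fold.

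**Figure D2:**
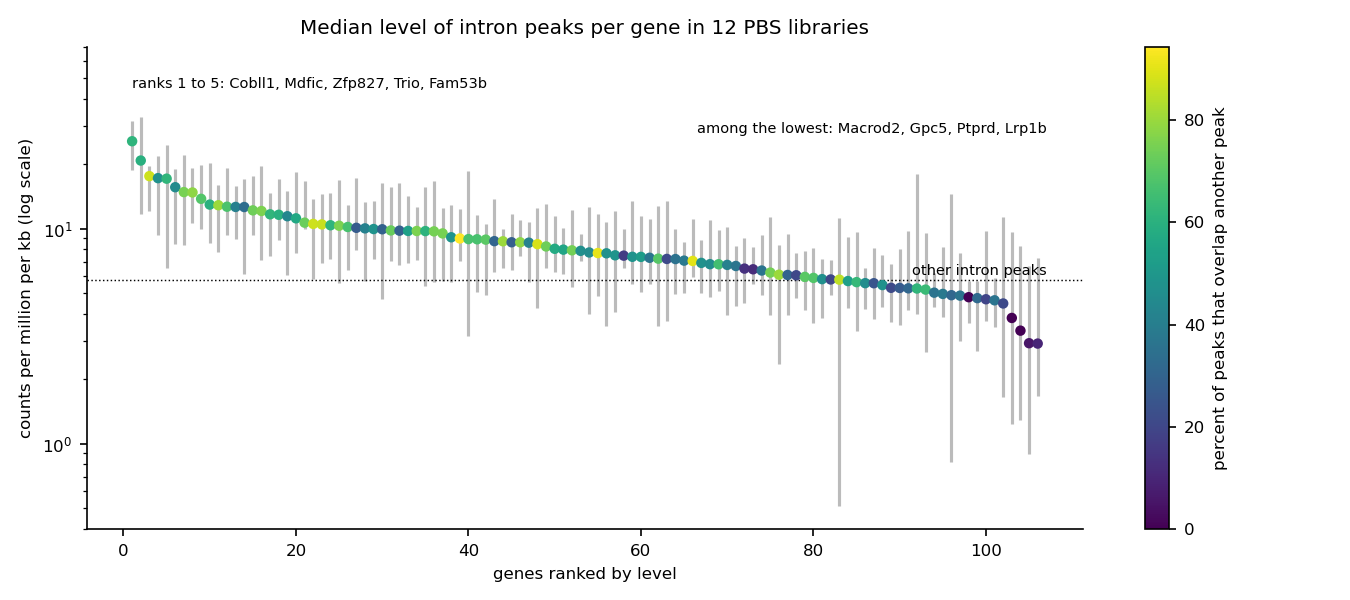
Level of each of the 106 genes in PBS on a log scale, as the median over its intron peaks in CPM per kb; points are medians and grey bars the range over 12 PBS libraries, coloured by the percent of peaks that overlap another peak. Genes run from Cobll1 at 25.5 to Lrp1b at 2.92, and the dotted line is the 5.79 of other intron peaks.

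Library totals ran from 7.39 M to 59.6 M counts, where M stands for 1e6, and the member peaks held 1.34% to 2.07% of them. At 168 h PBS replicate 1 (7.39 M), FP replicate 2 (12.3 M) and PBS replicate 2 (13.4 M) were shallow, while the other libraries had 32.8 M to 37.7 M. Promoter peaks of the Treg markers Il2ra, Ikzf2, Ctla4, Tnfrsf4, Tnfrsf18 and Cd4 summed to 52.1 to 111 CPM, and the deposited Foxp3 peak, in an intron (chrX:7583723-7584442), had a median of 9.44 CPM in PBS. Of 6 B cell markers, Cd79b and Ms4a1 had no peak and the promoters of the other 4 summed to 4.03 to 13.9 CPM, and of 4 NK cell markers Ncr1 had none and Klrb1c, the only gene with a promoter peak, had 0.0 to 1.57. Promoters of 4 of 7 myeloid markers (Cd14, Spi1, Cebpa, Fcgr3) summed to 66.6 to 160 CPM and those of 3 of 4 CD8 T cell markers to 48.6 to 134; Csf1r had no peak. An open promoter does not say that its gene was expressed. Promoters of the erythroid markers Gata1 and Epor, with 2 of 5 such genes measured there, summed to 21.1 to 35.1 CPM in PBS, 46.1 to 66.9 in IL2 and 28.5 to 41.6 in FP at 0.75 h. They summed to 23.9 to 39.2 in PBS, 26.8 to 42.9 in IL2 and 38.4 to 88.5 in FP at 16 h, and to 22.4 to 49.2 in PBS and 42.4 to 82.6 in FP at 72 h. The IL2 libraries of 0.75 h were thus all above the PBS libraries of that time, and those of FP at 16 h and 72 h were higher on average with overlapping ranges. The B cell promoters were apart in FP at 16 h (7.69 to 13.7 CPM against 5.31 to 7.37 in PBS) and at 72 h (11.2 to 13.9 against 9.24 to 10.3). The myeloid promoters were apart in FP at 16 h (118 to 138 against 74.2 to 115), and the Treg promoters in IL2 at 16 h (80.7 to 87.3 against 58.0 to 76.3). Their part in the results below was not tested.

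At 0.75 h after IL2, intron peaks of 24 of the 106 genes rose and none fell. The rise was found at 54 of 4252 member peaks tested (1.27%), which lay in 30 of 2235 regions (1.34%), by edgeR's quasi-likelihood test with Benjamini-Hochberg adjustment over all 100468 tested peaks (IL2 and PBS, n = 3 each). The background share of rises over all tested peaks was 0.488%, and that of falls 0.00896%. Among other intron regions 166 of 20169 rose (0.823%). The median log2 fold change was 0.02 over the member peaks and -0.02 over all peaks. Rises ran from 0.85 to 2.56 on the log2 scale with a median of 1.64. In these bulk libraries, more cells with an open site and a wider opening in each cell cannot be told apart. The count depended on single libraries: leaving out PBS replicate 3 or 1 gave 10 or 21, and leaving out IL2 replicate 3 or 1 gave 15 or 16.

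Called rises were sparse within each gene. In simulated counts 9% of 2-fold changes were recovered for IL2 at 0.75 h, so regions that were not called may also have changed. Of the 24 genes, 20 had 1 risen region, Cdk6 and Nfia had 2, and Fhit and Mdfic had 3. Fhit thus had 3 risen regions of 53, and Foxp1, with 93 intron peaks in 48 regions, had 1. The other 639 tested regions of the same genes had gene medians between -0.28 (Cdk6) and 0.44 (Foxp1), and at an unadjusted p under 0.05 in the edgeR fit 50 of them were higher and 17 lower. Overlapping peaks inflated the peak count: 29 of the 54 peaks came from 5 regions, with 10 called peaks in Jazf1, 8 in Gm13481, 5 in Foxp1, 5 in Gm15518 and 1 in Stk39. All 30 regions were more than 1 kb from an annotated start site, as were all but 1.68% of the member peaks. The median distance of the 30 was 15995 bp, beside 20259 bp for the other tested member regions. Of the 29 in genes with an annotated length, 3 were in the first 10% of the gene, those of Maml2, Immp2l and Pde4d. No such share was taken for the other regions. When membership was set by 30 merged regions instead of 30 peaks, 17 of 1123 tested peaks of the 21 genes rose (1.51%), in 13 of 765 regions (1.70%) and 11 genes.

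**Figure D3:**
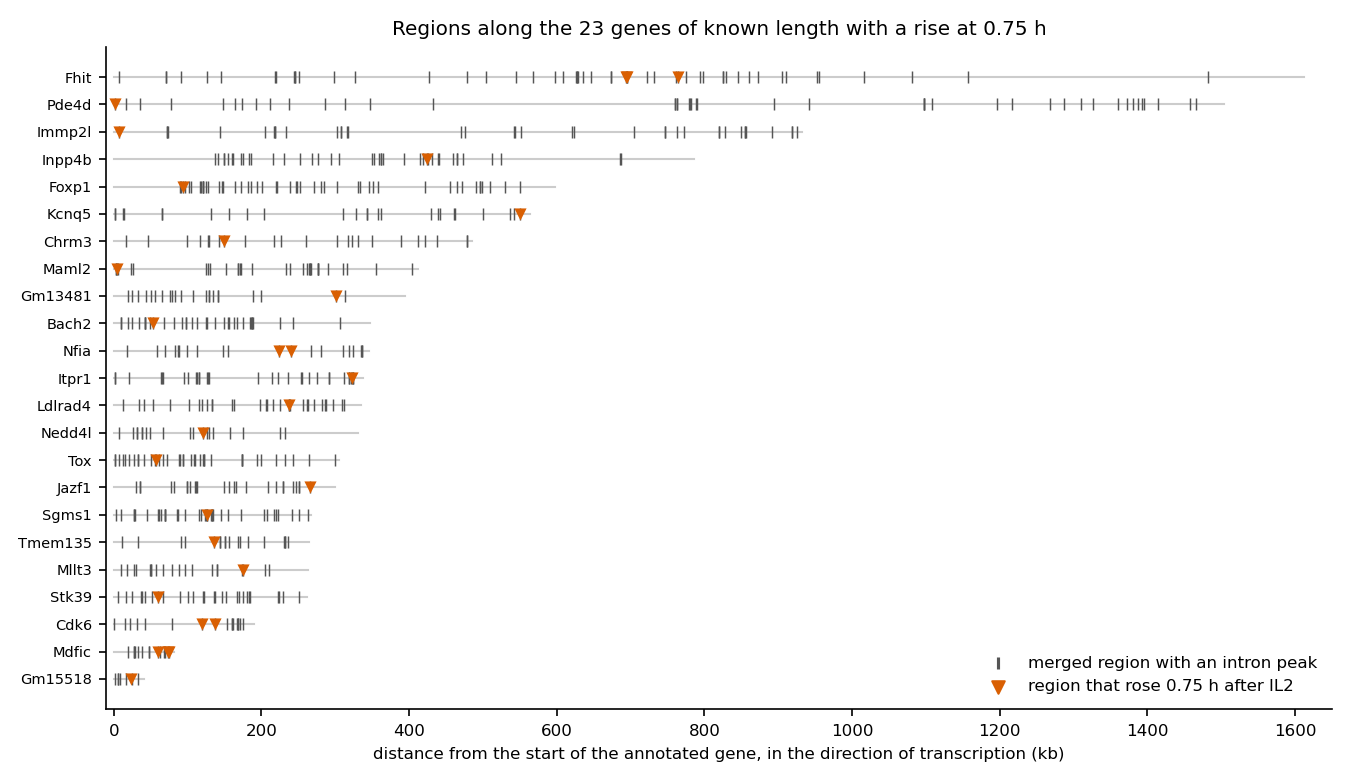
Merged regions with an intron peak (ticks) along the 23 genes that have an annotated length and a rise at 0.75 h, by distance in kb from the start of the gene in the direction of transcription; triangles mark regions that rose after IL2. Most genes have 1 triangle, Cdk6 and Nfia have 2, and Fhit and Mdfic have 3, of which neighbouring ones overlap in the drawing.

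By role, lymphoid transcription factor genes gave 8 risen peaks of 451 tested (4 regions), from Foxp1, Bach2, Tox and Ldlrad4; the last is in the list although it encodes a membrane inhibitor of TGF-beta signalling and not a transcription factor. Chromatin and nuclear regulators gave 3 of 182, from Cdk6, which encodes a kinase of the G1 phase, and Mllt3, a subunit of transcription elongation complexes. Signalling genes gave 4 of 702, from Pde4d, Inpp4b, Itpr1, the inositol trisphosphate receptor of the endoplasmic reticulum, and the ubiquitin ligase gene Nedd4l. Receptor and adhesion genes gave 0 of 174 by edgeR, and unlisted genes 39 of 2743, in 14 genes. In this order the shares were 1.77%, 1.65%, 0.57%, 0.0% and 1.42%, beside 0.488% over all tested peaks. Differences between the lists were not tested. The unlisted genes were Fhit, Immp2l, Maml2, Tmem135, Nfia, Mdfic, Sgms1, Stk39, Kcnq5, Chrm3, Jazf1 and the non-coding genes Morrbid, Gm13481 and Gm15518.

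Matches to TTCNNNGAA were frequent in the risen regions. Searching the central 300 bases of the peak with the most counts in each region, 23 of the 30 risen member regions held a match (76.7%), against 306 of 2205 other tested member regions (13.9%). The corresponding shares were 121 of 166 (72.9%) and 2386 of 20003 (11.9%) among other intron regions, and 11131 of all 104979 windows of this length held a match (10.6%). Within whole peaks, 51 of the 54 risen member peaks and 28 of the 30 regions' leading peaks held a match, against 665 of 4198 other tested member peaks (15.8%); the leading peaks without it were 1 of the 3 in Fhit and that of Itpr1. Risen regions also had wider peaks, with a median of 771 bp against 403 bp for the other member regions, and a median PBS level of 7.25 against 5.70 CPM per kb.

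The lowest adjusted p at 0.75 h belonged to an intron peak of Fhit at chr14:10467137-10467578, 11317 bp from the nearest start site, which rose by 2.56 ± 0.25 on the log2 scale (± SE; adjusted p = 0.000221, edgeR quasi-likelihood test). The peak at chr5:3477644-3478642 in Cdk6 followed with 1.99 ± 0.24 (adjusted p = 0.00101, edgeR). A peak of Tmem135, a gene of mitochondrial and peroxisomal dynamics, at chr7:89268256-89268824 rose by 2.37 ± 0.33 (adjusted p = 0.00221, edgeR). The Bach2 peak at chr4:32291137-32291970, 39792 bp from a start site, rose by 1.38 ± 0.20, from 13.8 ± 0.993 CPM in PBS to 35.6 ± 4.16 CPM in IL2 (SD, n = 3) (adjusted p = 0.00291, edgeR). A peak of Mllt3 at chr4:87858038-87858756 rose by 2.56 ± 0.39, from 1.39 ± 0.463 to 8.20 ± 0.671 CPM (adjusted p = 0.00366, edgeR). In all 5 peaks the IL2 libraries lay above every PBS library. The peaks were chosen by this same comparison, so the separation is a description and no test.

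FP at 0.75 h gave no called member peak, with 0 rises and 0 falls among 4252 tested by edgeR (background 0.00199% rises and 0.0% falls). At an unadjusted p under 0.05 there were 235 member peaks (5.53%, beside 3.15% over all peaks), 171 higher and 64 lower. DESeq2's Wald test called 29 rises among the member peaks, beside 216 rises and 6 falls over all tested peaks. With the replicate number as a block, edgeR called 18 rises among the member peaks and 127 over all 100468 tested peaks. The labels do not say what a shared number stands for. The peaks that had risen after IL2 were also higher in FP than in PBS: 30 of the 30 regions had a log2 fold change above 0, with a median of 1.11 and a range of 0.58 to 1.98, beside a median of 1.67 for IL2. Both sets of values use the same PBS libraries, and low PBS values that helped to choose the regions also raise FP against PBS, so the count of 30 is a description and no test. The Fhit and Cdk6 peaks had 1.57 ± 0.24 and 1.53 ± 0.24 with an edgeR adjusted p of 0.0554 each. The direct comparison of FP with IL2 at 0.75 h called 0 member peaks in edgeR (background 0.0% in both directions). In this fit 161 member peaks had an unadjusted p under 0.05 (3.79%, beside 3.66% over all peaks). DESeq2 called 0 member peaks, beside 5 rises and 1 fall over all peaks. The 30 regions had a median log2 difference of -0.50 (-1.10 to -0.26) between FP and IL2; they were chosen for high values in these IL2 libraries, which by itself lowers this difference, and nothing is read from its sign.

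At 16 h the IL2 libraries no longer differed from PBS past the threshold. No member peak of 4243 tested was called by edgeR (background 0.0% in both directions). An unadjusted p under 0.05 was found at 114 (2.69%, beside 3.62% over all peaks), 64 of them higher. DESeq2 called 1 fall among the member peaks and 2 over all peaks. Of the 30 early regions 19 were above 0 and 11 below, with a median of 0.07. The fall of the IL2 effect from 0.75 h to 16 h passed a test of the difference itself at 3 member peaks (background 0.0411% for smaller effects and 0.0% for larger ones): Fhit with a difference of -2.96 ± 0.38 (adjusted p = 0.000522), Pde4d with -2.27 ± 0.41 (adjusted p = 0.0195) and Immp2l with -1.63 ± 0.32 (adjusted p = 0.0400), all from the edgeR fit of the 31 libraries.

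At 16 h after FP 8 member peaks in 8 genes rose and none fell, of 4243 tested (0.189%, edgeR; background 0.114% rises and 0.0% falls). All 8 had also risen at 0.75 h after IL2. Immp2l, which encodes a subunit of the mitochondrial inner membrane peptidase, had the lowest adjusted p: its peak at chr12:41030898-41031669 rose by 2.02 ± 0.23 (adjusted p = 0.000146, edgeR). Nedd4l (chr18:65007438-65008515) rose by 2.00 ± 0.25 (adjusted p = 0.000767, edgeR) and Cdk6 by 1.80 ± 0.24 (adjusted p = 0.00223, edgeR). The Mdfic peak (chr6:15792755-15793966) rose from 65.1 ± 10.6 to 140 ± 11.3 CPM, a log2 fold change of 1.11 ± 0.16 (adjusted p = 0.00329, edgeR), and the peak of Nfia, a nuclear factor I gene, by 1.42 ± 0.22 (adjusted p = 0.00378, edgeR). Fhit, Pde4d and Maml2 completed the set with 1.70 ± 0.27, 1.43 ± 0.25 and 2.66 ± 0.47. The early regions as a whole had 30 of 30 values above 0 in FP at 16 h, with a median of 1.27 beside 0.07 for IL2 at the same time. Without FP column c1 of 16 h the count was 5. The B cell and myeloid marker promoters were also higher in every FP library than in every PBS library at this time, as given above, and their part in these rises was not tested.

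The difference between FP and IL2 at 16 h was tested directly. FP was higher at 9 member peaks of 4243 (0.212%, edgeR; background 0.141%) and lower at 0 (background 0.0%). They belonged to Immp2l (2.00 ± 0.22), Fhit (2.10 ± 0.27), Nedd4l (1.85 ± 0.25), Pde4d (1.71 ± 0.25), Cdk6 with 2 regions (1.47 ± 0.24 and 1.06 ± 0.20), Ldlrad4 (2.78 ± 0.46), Nfia (1.15 ± 0.22) and Mdfic (0.84 ± 0.16), with adjusted p from 0.000213 to 0.0285 in edgeR; 7 of these 9 were also among the 8 called against PBS. The count was 5 without FP column c1 or c2 and 14 without PBS column c2.

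At 72 h no member peak of 4226 was called in edgeR (background 0.0% in both directions). An unadjusted p under 0.05 was found at 304 (7.19%, beside 5.21% over all peaks), of which 231 were lower and 73 higher. DESeq2 called 3 rises and 3 falls among the member peaks, beside 71 rises and 70 falls over all peaks. The member median was -0.10 beside -0.03 over all peaks. The early regions had 20 of 30 values above 0, with a median of 0.22. Tested peaks of the receptor and adhesion genes had a median of -0.82 at 72 h (146 peaks) and -0.82 at 168 h (183 peaks), with 0 calls; the levels of Lrp1b and Macrod2, 2 of the 5 genes in this list, were lowest in the deepest PBS library as given above, and the part of library size was not tested. At 168 h edgeR called 0 of 4275 (background 0.0% in both directions). An unadjusted p under 0.05 was found at 187 (4.37%, beside 4.54% over all peaks). DESeq2 called 2 rises among the member peaks, beside 26 rises and 1 fall over all peaks. Of the 30 early regions 10 were above 0, with a median of -0.24. Neither change of the FP effect (0.75 h to 16 h, 16 h to 72 h) was called at any member peak in edgeR. The background was 0.0% in both directions for the first change, and 0.0% larger and 0.000957% smaller for the second. At an unadjusted p under 0.05 there were 162 member peaks for the first (3.74%, beside 3.52% over all peaks). For the second there were 163 (3.76%, beside 2.97%).

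**Figure D4:**
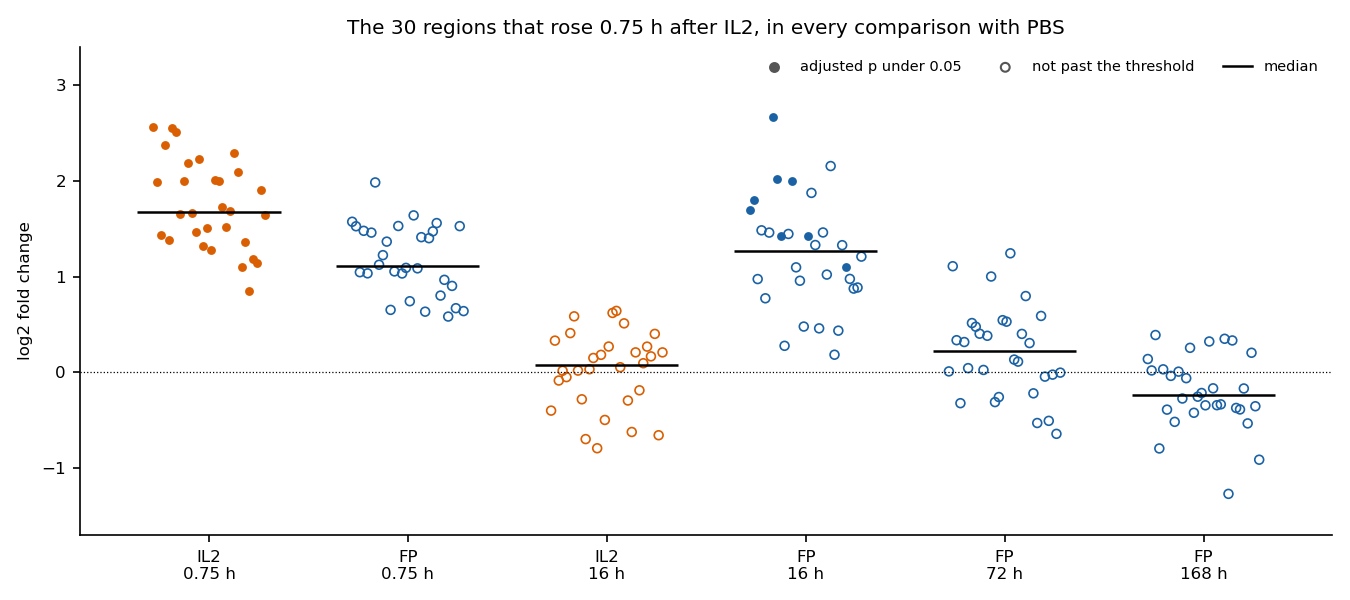
Log2 fold change against PBS of the same time for the 30 regions that rose 0.75 h after IL2, each by its peak with the lowest adjusted p; filled points passed an adjusted p of 0.05 and bars are medians. The first column was used to choose the regions. Medians are 1.67, 1.11, 0.07, 1.27, 0.22 and -0.24 from left to right.

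The test over all groups asked whether any treated group differed from the PBS libraries of its time, with 6 contrasts in a single edgeR fit of 31 libraries. It called 50 of 4331 member peaks (1.15%) in 26 regions and 23 genes, against a background of 0.485%. Of these, 41 were among the 54 called after IL2 at 0.75 h, and 9 were in none of the single comparisons. The 9 included peaks of Rbms1, Hdac9 and Hivep3, genes with no other call, and were named after their values were seen. The 12 genes with the lowest adjusted p were Immp2l (1.99e-07), Fhit (3.49e-07), Nedd4l (9.45e-07), Cdk6 (3.17e-06), Pde4d (3.6e-05), Nfia (9.23e-05), Maml2 (0.000109), Tmem135 (0.000256), Gm15518 (0.000311), Ldlrad4 (0.000752), Gm13481 (0.000889) and Jazf1 (0.00388). Their peaks were chosen by this test, which holds every comparison with PBS. Separations from PBS given for them below are therefore a description and no test.

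The Immp2l peak, 772 bp wide and 6954 bp from the nearest start site, gave 11.6, 11.5 and 16.8 CPM in PBS, 48.9, 29.1 and 47.5 in IL2 and 38.1, 21.8 and 26.3 in FP at 0.75 h. At 16 h it gave 8.69, 9.16 and 9.03 in PBS, 7.99, 11.3 and 7.95 in IL2 and 39.8, 38.4 and 30.9 in FP. At 72 h PBS gave 6.72, 6.99 and 7.91 and FP 9.27, 10.3 and 11.3, and at 168 h PBS gave 9.36, 11.0 and 8.70 and FP 6.70, 8.22, 6.79 and 5.77. The treated libraries were above all PBS libraries at 0.75 h, the FP libraries alone at 16 h. FP and PBS were also separate at 72 h (log2 0.48 ± 0.19, adjusted p = 0.93, edgeR) and, in the other direction, at 168 h (-0.52 ± 0.24, adjusted p = 0.899, edgeR).

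The Fhit peak gave 6.59, 4.94 and 4.92 CPM in PBS, 35.4, 26.6 and 35.3 in IL2 and 18.5, 12.1 and 18.1 in FP at 0.75 h. At 16 h it gave 5.26, 4.55 and 5.33 in PBS, 3.51, 4.35 and 3.63 in IL2 and 18.7, 14.6 and 15.9 in FP. At 72 h PBS gave 3.65, 3.12 and 4.06 and FP 3.92, 4.01 and 3.20, and at 168 h PBS gave 2.38, 2.98 and 3.03 and FP 3.69, 4.76, 1.93 and 2.26. IL2, FP and PBS did not overlap at 0.75 h, in that order from high to low. At 16 h every IL2 library was below every PBS library (log2 -0.40 ± 0.27, which missed the threshold with an adjusted p of 1.00 in edgeR), and from 72 h on FP and PBS overlapped.

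Nedd4l encodes a HECT-type ubiquitin ligase. Its peak gave 12.0, 9.98 and 10.7 CPM in PBS, 28.7, 31.7 and 29.5 in IL2 and 26.5, 26.8 and 13.9 in FP at 0.75 h. At 16 h it gave 8.77, 7.06 and 6.90 in PBS, 9.77, 9.61 and 6.01 in IL2 and 32.8, 33.3 and 25.1 in FP. At 72 h PBS gave 8.88, 9.08 and 10.1 and FP 17.2, 18.8 and 21.5, and at 168 h PBS gave 5.73, 8.93 and 9.46 and FP 10.9, 11.2, 10.3 and 6.87. FP stayed clear of PBS at 72 h, by 1.00 ± 0.17 on the log2 scale, a difference that missed the threshold (adjusted p = 0.683, edgeR).

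The Cdk6 peak, 999 bp wide, gave 9.15, 6.91 and 10.5 CPM in PBS, 32.5, 29.9 and 42.7 in IL2 and 28.6, 27.9 and 19.2 in FP at 0.75 h. At 16 h it gave 7.08, 8.11 and 7.15 in PBS, 9.07, 10.2 and 8.87 in IL2 and 24.7, 32.2 and 20.6 in FP. At 72 h PBS gave 3.71, 4.41 and 7.77 and FP 8.11, 12.7 and 14.5, and at 168 h PBS gave 6.57, 8.28 and 5.70 and FP 7.85, 4.93, 7.74 and 7.46. All treated groups were above PBS at 0.75, 16 and 72 h, narrowly for IL2 at 16 h (0.33 ± 0.24) and FP at 72 h (1.11 ± 0.30), neither of which was called; at 168 h FP and PBS overlapped.

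The Pde4d peak, 1089 bp from an annotated start site, gave 16.9, 7.46 and 10.2 CPM in PBS, 51.6, 42.0 and 44.0 in IL2 and 38.2, 27.7 and 13.9 in FP at 0.75 h. At 16 h it gave 8.40, 10.8 and 6.90 in PBS, 6.49, 7.87 and 7.05 in IL2 and 26.1, 24.5 and 19.5 in FP. At 72 h PBS gave 8.53, 9.88 and 10.1 and FP 14.0, 12.4 and 12.1, and at 168 h PBS gave 6.29, 11.9 and 10.1 and FP 8.44, 13.0, 8.66 and 8.72. The FP libraries of 0.75 h were spread widely and the lowest of them fell within the PBS range, while at 16 h FP was clear of both other groups. FP also lay above PBS at 72 h (0.40 ± 0.19, adjusted p = 0.93, edgeR).

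The Nfia peak, 85166 bp from the nearest start site, gave 23.2, 14.5 and 17.3 CPM in PBS, 39.6, 49.8 and 43.0 in IL2 and 36.5, 31.8 and 22.8 in FP at 0.75 h. At 16 h it gave 9.23, 12.8 and 15.2 in PBS, 13.9, 16.4 and 14.5 in IL2 and 33.6, 32.6 and 33.6 in FP. At 72 h PBS gave 13.2, 13.7 and 11.2 and FP 19.1, 20.2 and 17.0, and at 168 h PBS gave 15.1, 21.9 and 15.2 and FP 16.1, 15.1, 15.6 and 8.67. The FP values at 16 h lay closest together, at 33.2 ± 0.59 CPM (SD, n = 3), and at 0.75 h 1 FP library fell within the PBS range. At 72 h FP lay above PBS (0.53 ± 0.18, adjusted p = 0.93, edgeR).

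**Figure D5:**
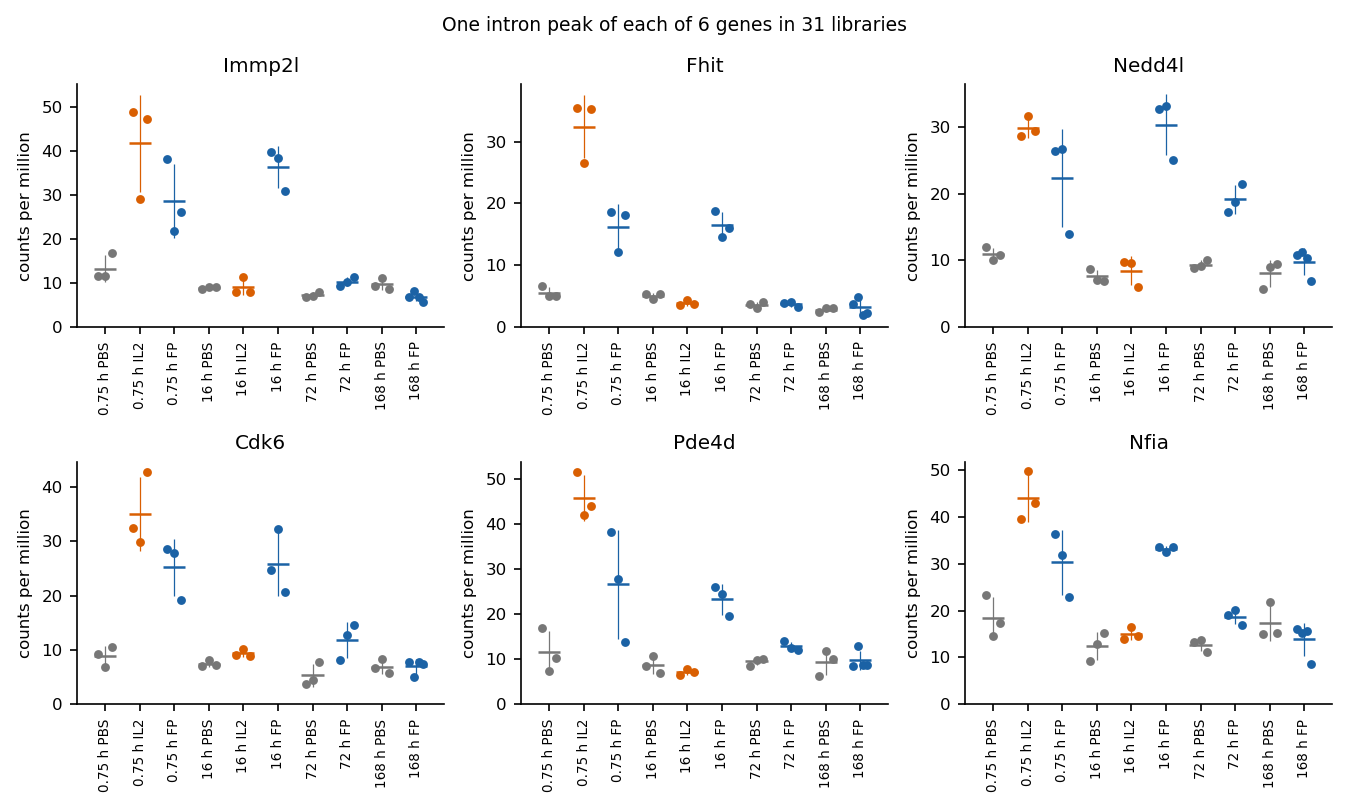
CPM of 1 intron peak of each of 6 genes in all 31 libraries, by time and treatment (grey PBS, orange IL2, blue FP); points are libraries, horizontal bars means and vertical bars SD. IL2 libraries are high at 0.75 h and near PBS at 16 h, whereas FP libraries are above the mean of PBS at both times. At 72 h every FP library is above every PBS library for each gene but Fhit, though no difference was called. The peaks were chosen by a test that includes this comparison, so the separation is a description and no test. Nedd4l then has FP at 19.2 ± 2.15 against 9.35 ± 0.64 in PBS.

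Among the other named peaks, that of Maml2 (chr9:13302541-13302902) rose from 1.42 ± 0.47 to 8.03 ± 2.42 CPM after IL2 at 0.75 h and stood at 8.07 ± 2.48 in FP against 1.25 ± 0.76 in PBS at 16 h. The peak of Ldlrad4 (chr18:68170297-68170740) had the largest log2 difference between FP and IL2 at 16 h among the called member peaks, at 6.76 ± 1.75 against 0.97 ± 0.58 CPM. In Gm15518, a gene model with 37 intron peaks in 7 regions, the named peak (chr16:49775429-49775934) lay in a pile of 19 overlapping peaks and went from 4.63 ± 0.95 to 11.8 ± 1.16 CPM. Those of Gm13481 (chr2:48156583-48156952) and Jazf1 (chr6:52801830-52802750) each lay in a pile of 11; they went from 4.74 ± 1.03 to 14.6 ± 3.35 and from 5.54 ± 2.56 to 17.3 ± 2.59 CPM. Foxp1, the gene with the second most intron peaks, rose at chr6:99428728-99429212, in a pile of 13 peaks, by 1.72 on the log2 scale, and Tox (chr4:6933912-6934743) by 1.14.

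Genes of the IL-2 receptor and STAT5 pathway that fall outside the rule serve as a reference. Of 20 listed genes, 11 had intron peaks, 103 of which were tested at 0.75 h. After IL2, 5 of these rose and 0 fell in edgeR, where the background share of rises over all tested peaks was 0.488%. Of the 5, 4 were in Bcl2, an inhibitor of apoptosis, with log2 fold changes from 1.01 to 2.16. The other was in Ikzf2, which encodes Helios, with 1.92 ± 0.38. With 4 of the 5 in 1 gene, the count describes few genes and gives no rate for the pathway. After FP at 16 h, 2 of 105 rose (background 0.114% rises), in Bcl2 (1.15 ± 0.23) and in the phosphatase gene Ptpn2 (2.64 ± 0.42). In the other comparisons with PBS edgeR called 0 of these peaks.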

How the data were processed

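The authors mapped reads to GRCm38 (mm10) with BWA and called peaks with MACS2 2.1.2, per the submitters' processing notes. A filter on reproducibility (IDR) compared 2 pseudo-replicates drawn from every library, per the labels and the series' design text. The sources used here do not say how the common peak set was made or why its peaks overlap. Per peak and library, the authors deposited raw read counts; the first per-sample column, of another recorded unit because commas inside gene names shift it, holds deposited whole-number counts too. No per-sample column was left unmapped (0). At 16 h the columns give the group only and are called c1 to c3.

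Counts were tested with edgeR 4.0.16 (R 4.3.3; TMM scaling; filterByExpr with a minimum count of 10 and total of 15; quasi-likelihood F test; Benjamini-Hochberg over all tested peaks, threshold 0.05), one fit per time with all its groups, and one fit of 31 libraries for the test over all groups and for differences between times. Of the 4339 member peaks 4252, 4243, 4226 and 4275 passed the filter at 0.75, 16, 72 and 168 h. DESeq2 1.42.0, other scalings, no filter, single libraries left out, a replicate block and 1 peak per merged region were alternatives. Simulated counts with 2-fold changes in 100 peaks and 4-fold changes in another 100 gave recoveries of 9% and 83% for IL2 at 0.75 h (100468 peaks), 20% and 90% for IL2 at 16 h (100771), 16% and 85% for FP at 72 h (100480) and 4% and 61% for FP at 168 h (102580). Libraries of one group differed beyond counting error (chi-square per degree of freedom 5.43 to 36.5), so none was counted as the same library read again. This cannot tell separate mice from repeat preparations of the same cells. Gene models are GENCODE M21 and sequences the GRCm38 RefSeq assembly, read with pysam 0.24.0; 0 deposited peaks ran past the end of a chromosome. Tables and figures used Python 3.11.15, pandas 2.3.3, scipy 1.17.1 and matplotlib 3.10.9.

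The rule, the role lists and the named peaks were chosen with earlier results of these data known. Named were the 30 genes with the most intron peaks, the 5 highest and 5 lowest PBS levels (1 gene and 2 markers are not reported here), per comparison up to 5 rises and 3 falls by adjusted p and over all groups 12 peaks, 1 per gene, with every library for the first 6.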

Additional observations from a re-analysis of the deposited data

Results flagged for a closer look

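In the 4 FP libraries of 168 h, 1 library lay far from the other 3 for 3 of the named peaks: the gap to the nearest value was 0.868 of the range for Cdk6, 0.869 for Nfia and 0.937 for Pde4d. It was FP replicate 2, the shallowest of the group, for Cdk6 (4.93 CPM, low) and Pde4d (13.0 CPM, high), and FP replicate 4 for Nfia (8.67 CPM, low). Chance marks about 5% of groups, and 15 peaks were examined in this way.

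The IL2 effect differed between 16 h and 0.75 h at 3 member peaks by the test of the difference itself, with log2 differences of -2.96 for Fhit, -1.63 for Immp2l and -2.27 for Pde4d.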

How the results depend on the processing

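The member peaks called after IL2 at 0.75 h numbered 54 in the fit as reported, 90 with DESeq2 (87 rises and 3 falls), 28 with 1 peak per merged region and 17 in genes with 30 or more merged regions, a restriction chosen after seeing the data; leaving out 1 library each gave 10 to 64. For FP at 0.75 h, 0 became 29 with DESeq2, 1 with library totals as the scaling, 2 with no filter and 0 to 1 with 1 library left out. DESeq2 called 1 for IL2 at 16 h, 50 for FP and 52 for FP against IL2 at 16 h, 6 at 72 h and 2 at 168 h. Over all tested peaks its counts were 1020 rises and 96 falls for IL2 and 216 and 6 for FP at 0.75 h. At 16 h they were 440 and 49 for FP and 463 and 29 for FP against IL2. All libraries in 1 fit gave 15 for FP and 19 for FP against IL2 at 16 h; leaving out 1 library gave 5 to 11 and 5 to 14. Over all groups 50 became 105 with DESeq2's likelihood ratio test, which called 1429 over all peaks, and 25 with 1 peak per merged region. The 3 differences of the IL2 effect became 7 without the 168 h libraries, an alternative added after seeing the data. The cause was not tested, except that 1 peak per region holds fewer peaks.

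The median over genes of the PBS level was 7.81 CPM per kb (7.78 to 7.94 with 1 library left out), 8.99 by the mean over peaks and 6.11 with 1 peak per merged region. In refits of single named peaks 416 values kept their side of the threshold, 39 lost it, 10 gained it and 0 turned. With the replicate number as a block, 87 member peaks were called after IL2 and 18 after FP at 0.75 h, and 0 at 72 h and 168 h; same-numbered libraries did not all deviate together (6 of 9 pairs above 0.1 at 0.75 h, where 8 of 9 libraries fitted best with their own number, and 2 of 3 pairs at 72 h and at 168 h). At 0.75 h the correlations behind these counts ran from 0.00572 to 0.301 in same-numbered pairs and from -0.281 to 0.0643 in other pairs. No paired analysis was possible at 16 h because the columns carry no label numbers. Single libraries were not left out of the test over all groups. Small changes were often missed: 4% to 20% of simulated 2-fold changes were recovered, the fewest at 168 h; the part of depth in this was not tested.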
